A study of Mus musculus with 6 samples.

Results

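Siglecs are lectins of the immunoglobulin superfamily that bind sialic acids, the acidic sugars that cap the glycans of cell surfaces and secreted proteins. Most carry tyrosine motifs in the cytoplasmic tail that, once phosphorylated by Src family kinases, recruit the phosphatases SHP-1 and SHP-2 and dampen activating receptors. Siglec1 (sialoadhesin, CD169) lacks these motifs and serves macrophages as an adhesion and capture receptor, whereas Siglech has a short tail and signals through the adaptor DAP12. Siglec1 is known as an interferon-inducible gene of monocytes and macrophages. Cd33, Siglece, Siglecf, Siglecg and Siglech belong to the CD33-related subgroup, whose genes evolve rapidly and are known from myeloid cells, neutrophils, eosinophils, B cells and plasmacytoid dendritic cells respectively.

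The 6 genes described here, Siglec1, Cd33, Siglece, Siglecf, Siglecg and Siglech, were chosen by name from 36137 annotated genes. All 6 had at least 10 counts over the 6 libraries and were among the 18506 genes tested. They were measured by bulk RNA-seq in bone marrow-derived macrophages (BMDMs), cultured for 7 days and then exposed for 8 hours to hypoxia with serum starvation (HSS, 2.1% oxygen in the labels), a culture model of ischemia. Drp1 KO BMDMs (3 libraries) came from LysM-Cre+/- mice with floxed Drp1 (Dnm1l) alleles, and WT BMDMs (3 libraries) from LysM-Cre+/- Drp1+/+ mice, so both groups carried the Cre. The LysM promoter drives Cre in myeloid cells, and marrow of 2 mice per genotype was pooled. The methods of the study give an age of 8 to 12 weeks and both sexes for its mice in general. The sources do not say whether each library came from its own pool, and p-values measure only the spread between these libraries. Normoxic cultures were not part of the RNA-seq, so each difference is one of genotype under HSS.

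Depth ran from 23389488 to 32231206 estimated reads per library, at which 3 counts correspond to 0.0917 to 0.136 CPM (counts scaled by library size to the same total). Among WT libraries, library 1 stood apart: the chi-square per degree of freedom over gene counts was 29.4 and 28.6 between it and WT libraries 2 and 3, 9.50 between WT libraries 2 and 3, and 30.8 between it and Drp1 KO library 1. Drp1 KO library 1 was likewise further from Drp1 KO libraries 2 and 3 (30.6 and 39.6) than those were from each other (18.1). Dnm1l, the targeted gene, was at 72.6 ± 2.61 CPM (SD, n = 3) in WT and 61.9 ± 3.91 CPM in Drp1 KO, lower in every Drp1 KO library than in every WT library, with a log2 fold change of -0.23 ± 0.0921 (SE) and an edgeR adjusted p of 0.248. Counts summed over the gene do not separate transcripts with and without a deleted exon. Macrophage markers were present in both groups. All 10 passed the count filter, and their summed level was 13690 to 15110 CPM (WT) and 12227 to 14644 CPM (Drp1 KO). Most of the sum was Lyz2, at 9489 ± 421 CPM (SD, n = 3) in WT and 8883 ± 949 CPM in Drp1 KO. Of these markers, Fcgr1 rose by 1.34 on the log2 scale in Drp1 KO, and Csf1r and Mertk each fell by 0.52 (edgeR adjusted p = 0.000322, 0.0340 and 0.0236). Fcgr1 kept its call with any 1 library left out, Mertk lost it when library 2 or library 3 of either genotype was left out, and Csf1r lost it in those fits and without WT library 1 (edgeR adjusted p = 0.0621 to 0.133 for the lost calls).

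Except for Siglec1 on chromosome 2 (ENSMUSG00000027322, GRCm39 chr2:130911140-130928685, minus strand), the genes lie on chromosome 7. Siglecf (ENSMUSG00000039013, chr7:43000765-43008955, plus), Siglecg (ENSMUSG00000030468, chr7:43057628-43067782, plus), Cd33 (ENSMUSG00000004609, chr7:43173634-43193875, minus) and Siglece (ENSMUSG00000030474, chr7:43298405-43309607, minus) stand close together, and Siglech (ENSMUSG00000051504, chr7:55417926-55429195, plus) lies apart from them. RefSeq promoter windows of GRCm38.p6 were available for 5 of the 6 genes, all but Siglec1. The 250 bases upstream of the start of 3 cluster genes are shown, because Siglece rose while Cd33 and Siglecf did not pass the test. Positions are chr7:43660162-43660411 (minus strand) for Siglece, chr7:43533172-43533421 (minus) for Cd33 and chr7:43351091-43351340 (plus) for Siglecf, and capitals mark the letters GGAAGT, a core of sites for the myeloid factor PU.1.
Siglece: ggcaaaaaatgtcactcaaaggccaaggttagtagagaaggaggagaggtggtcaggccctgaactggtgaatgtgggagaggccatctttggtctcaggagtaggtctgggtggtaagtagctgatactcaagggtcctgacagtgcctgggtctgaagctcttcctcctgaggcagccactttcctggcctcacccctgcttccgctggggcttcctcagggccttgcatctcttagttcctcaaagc
Cd33: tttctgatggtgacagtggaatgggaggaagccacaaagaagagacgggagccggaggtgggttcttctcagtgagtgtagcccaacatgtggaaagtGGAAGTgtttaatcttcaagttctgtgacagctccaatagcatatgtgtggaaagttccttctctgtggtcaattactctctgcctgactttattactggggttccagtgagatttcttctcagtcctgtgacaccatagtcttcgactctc
Siglecf: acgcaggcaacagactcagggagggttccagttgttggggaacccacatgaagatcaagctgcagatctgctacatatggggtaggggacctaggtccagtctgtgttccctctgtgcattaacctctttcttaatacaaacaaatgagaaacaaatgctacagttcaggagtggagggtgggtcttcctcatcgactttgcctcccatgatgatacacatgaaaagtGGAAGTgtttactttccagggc

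Both strands were searched for the core of the interferon-stimulated response element (GAAA repeated after any 2 bases), the STAT site core TTCNNNGAA and GGAAGT, which 2.98%, 7.02% and 19.7% of 32851 RefSeq windows of this length hold. Siglece had no match to any of the 3. Cd33 and Siglecf had GGAAGT once each, 152 and 22 bases before the start, within a shared run of 16 bases, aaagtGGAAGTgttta. The longest run shared by any other pair of the 5 genes was 7 to 10 bases. Siglech had 1 match each to TTCNNNGAA and GGAAGT, and Siglecg had none. Matches are a description of letters in these windows only.

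Siglec1 and Siglece rose in Drp1 KO BMDMs, each about doubling, and the other 4 genes did not pass the test. These 2 of 6 compare with 621 of 18506 genes (3.36%) at an edgeR adjusted p under 0.05, of which 424 (2.29%) passed as higher and 197 (1.06%) as lower. With libraries paired by replicate number, a pairing that the sources do not state, 2212 genes passed, and the same 2 of the 6 did. By the thresholds used in the study (a minimum fold change with an unadjusted p under 0.05) Siglec1 and Siglece were again the members that passed, beside 12.7% of all genes, 7.19% as higher and 5.48% as lower. Of the 6 fold changes 5 were above 0 and 1 below, while 50.6% of all genes tested were above 0. Their median log2 fold change was 0.51, against 0.00 over all genes tested. This median lies between Cd33 (0.23) and Siglecg (0.79), which had only 8 counts in WT and 15 in Drp1 KO, so it describes no shift of the family. Fewer cells of a type and less RNA per cell cannot be told apart in bulk RNA.

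**Figure D1:**
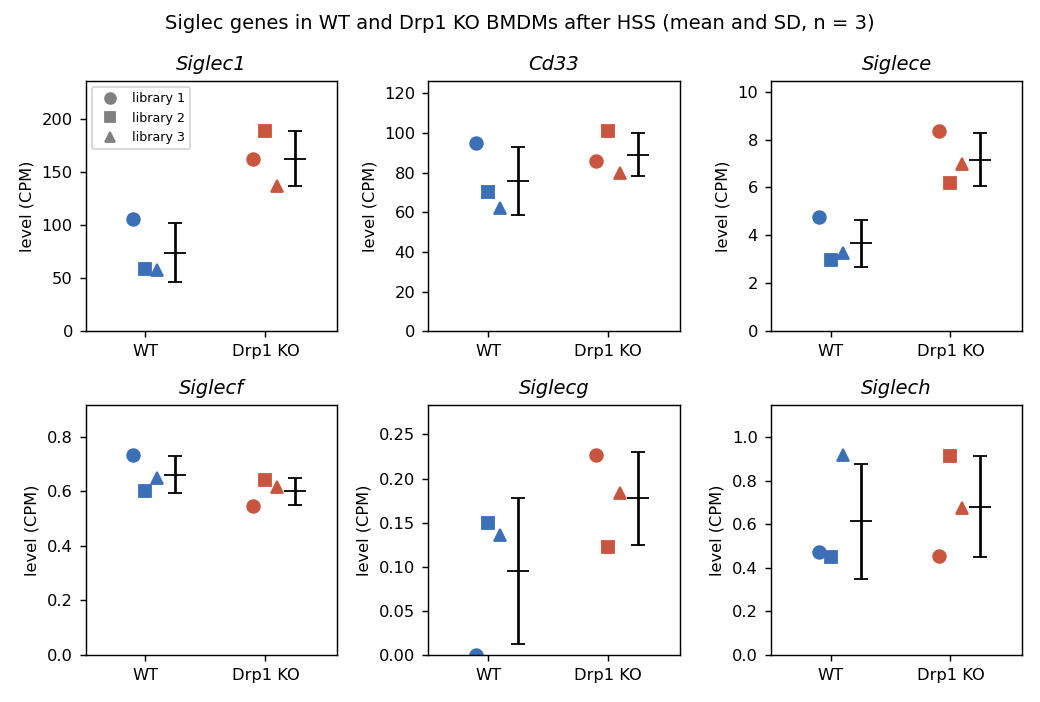
Level of each Siglec gene in CPM (vertical axes, each from 0) in the 3 WT (blue) and 3 Drp1 KO (red) libraries, with symbols for the replicate number and black bars for the mean and SD. For Siglec1 and Siglece each red point lies above every blue point, and for the other genes the groups overlap.

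Siglec1 was at 106, 58.7 and 57.3 CPM in WT libraries 1 to 3 and at 162, 189 and 137 CPM in Drp1 KO libraries 1 to 3. The groups did not overlap, which held for 21.9% of all genes and with Drp1 KO higher for 11.7%, and WT library 1 stood nearest to the Drp1 KO range. The mean was 74.1 ± 27.9 CPM (SD, n = 3) in WT and 163 ± 25.8 CPM in Drp1 KO, a 2.20-fold difference. The log2 fold change was 1.14 ± 0.224 (SE), with a 95% interval of 0.64 to 1.63 and an adjusted p of 0.0232 by edgeR's quasi-likelihood test. An exact two-sided permutation test gave p = 0.1, the smallest that 3 against 3 libraries allows. Between libraries of the same number the log2 difference was 0.61, 1.68 and 1.26. The call was lost on leaving out 1 of 3 libraries: WT 2 (log2 fold change 0.97, edgeR adjusted p = 0.142), WT 3 (0.96 and 0.110) or Drp1 KO 2 (1.02 and 0.110).

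Siglec1 reads fell almost wholly on 1 transcript. The canonical coding transcript of Siglec1, of 21 exons and 6387 bases, took 97.9% of the gene's estimated counts in WT and 98.2% in Drp1 KO, and 2 shorter coding transcripts took the rest. No 31-base word of Siglec1 was shared with another Siglec family gene.

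Siglece, an inhibitory receptor of neutrophils and macrophages, was scarcer, with 3.99 TPM (transcripts scaled by length and library) over the 6 libraries against 21.7 for Siglec1. It had 111, 79 and 96 counts in WT and 184, 202 and 227 in Drp1 KO. These are 4.79, 2.96 and 3.27 CPM in WT against 8.35, 6.17 and 6.96 CPM in Drp1 KO, again with no overlap and with WT library 1 the highest of its group. The mean rose from 3.67 ± 0.977 to 7.16 ± 1.10 CPM (SD, n = 3), 1.95-fold, with a log2 fold change of 0.96 ± 0.216 (SE), a 95% interval of 0.48 to 1.44 and an edgeR adjusted p of 0.0402. The exact permutation p was 0.1. Pairs of the same number differed by 0.79, 1.04 and 1.07, a narrower range than for Siglec1. The edgeR call nevertheless sat closer to the threshold: it was kept on leaving out WT library 1 (adjusted p = 0.0123) and lost on leaving out any of the other 5 libraries (0.0764 to 0.204).

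Siglece-201, the canonical coding transcript, took 97.5% of the gene's counts in WT and 99.7% in Drp1 KO. Its deposited length was 1849 bases, against 3960 in the newer annotation used for gene positions. In the newer annotation Siglece overlaps Ceacam18 on the opposite strand, and 40.3% of its 31-base words there also occur in Ceacam18. The deposited counts were made with the model of 1849 bases, whose shared words were not counted. Ceacam18 itself had 5, 14 and 18 counts in WT and 12, 22 and 18 in Drp1 KO (log2 fold change 0.37, edgeR adjusted p = 0.787), all below the Siglece counts of the same library. With counts scaled by transcript length, the log2 fold change of Siglece was 0.89 and its adjusted p 0.0722.

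Cd33, a myeloid receptor, stood at 94.8, 70.1 and 62.4 CPM in WT and at 86.1, 101 and 80.0 CPM in Drp1 KO. The groups overlapped, since WT library 1 was above 2 of the 3 Drp1 KO libraries. Means were 75.8 ± 17.0 and 89.0 ± 10.8 CPM (SD, n = 3), with a log2 fold change of 0.23 ± 0.155 (SE), a 95% interval of -0.11 to 0.58 and an edgeR adjusted p of 0.522. Differences between same-numbered libraries were -0.14, 0.53 and 0.36, so number 1 differed in sign from numbers 2 and 3. Cd33-203, the canonical coding transcript, carried 95.8% of Cd33 counts in WT and 95.9% in Drp1 KO.

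WT library 1, which stood apart over all genes, was the highest WT library for Siglec1, Cd33 and Siglece alike. Without it the log2 fold changes were 1.48, 0.42 and 1.19 (edgeR adjusted p = 0.000499, 0.0936 and 0.0123), in that order. The level in WT library 1 was 1.85 times the lowest WT level for Siglec1, 1.62 times for Siglece and 1.52 times for Cd33. Among Drp1 KO libraries the highest level was 1.38, 1.35 and 1.26 times the lowest, respectively.

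**Figure D2:**
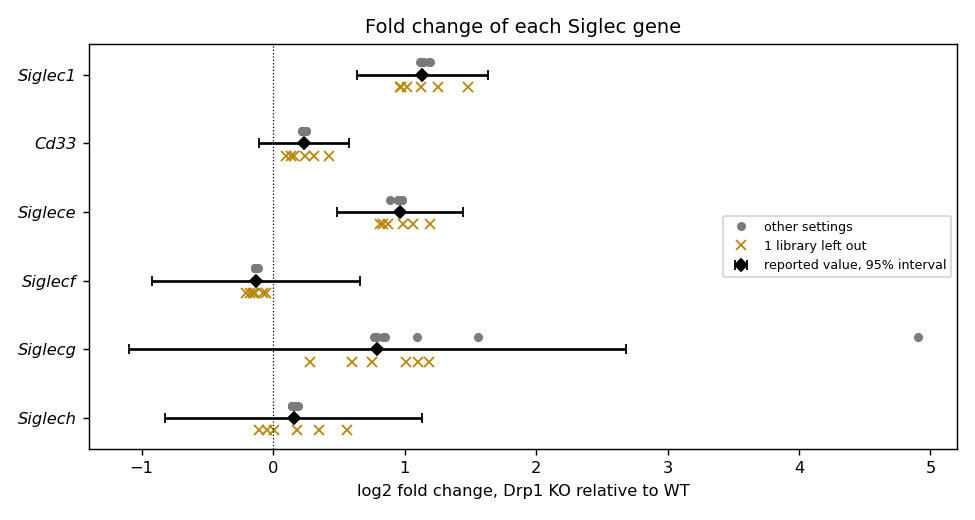
Log2 fold change of each Siglec gene, Drp1 KO relative to WT (horizontal axis), with the reported value and its 95% interval (black), other processing settings (grey) and fits with 1 library left out (crosses). The intervals of Siglec1 and Siglece lie above 0, those of the other 4 genes include it, and the grey Siglecg point at 4.91 comes from counts on coding transcripts alone, where WT had none.

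The other 3 genes were near the limit of these libraries. Siglecf, a receptor of eosinophils and alveolar macrophages, had 17, 16 and 19 counts in WT and 12, 21 and 20 in Drp1 KO. Its level was 0.660 ± 0.0676 CPM (SD, n = 3) in WT and 0.600 ± 0.0498 CPM in Drp1 KO. The log2 fold change was -0.13 (95% interval -0.92 to 0.66, edgeR adjusted p = 0.926), so a difference was not detectable at this depth. All Siglecf counts were assigned to the coding transcript Siglecf-201.

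Siglech, a receptor that marks plasmacytoid dendritic cells, had 11, 12 and 27 counts in WT and 10, 30 and 22 in Drp1 KO. Counts varied about as much within a genotype as between them. The level was 0.615 ± 0.265 CPM (SD, n = 3) in WT and 0.682 ± 0.231 CPM in Drp1 KO, with a log2 fold change of 0.16 (95% interval -0.82 to 1.13, edgeR adjusted p = 0.927). The sign turned to -0.04 without WT library 2 and to -0.11 without Drp1 KO library 2. Of its counts 62.3% were assigned to the coding transcript Siglech-203 and 37.3% to Siglech-204, annotated for nonsense-mediated decay, and 0 to the canonical Siglech-201.

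Siglecg, known as an inhibitory receptor of B cells, was the scarcest of the 6, with 0, 4 and 4 counts in WT and 5, 4 and 6 in Drp1 KO. The ratio of its summed counts, Drp1 KO to WT and scaled by library size, was 1.70 with a 95% interval of 0.677 to 4.63, which covers counting error only. The edgeR adjusted p was 0.736. The coding transcript Siglecg-201 had 0 estimated counts in each WT library and 4.80, 0 and 6 in Drp1 KO, and the WT counts lay on transcripts with retained introns. At these counts the split between transcripts rests on a handful of reads.

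To compare levels between genes, the deposited TPM, which are scaled by length, were added per gene. Over the 6 libraries the mean TPM was 25.8 for Cd33, 21.7 for Siglec1, 3.99 for Siglece, 0.565 for Siglech, 0.352 for Siglecf and 0.0610 for Siglecg. Neighbours Cd33 and Siglec1 overlapped in range, as did Siglech and Siglecf, while Siglec1 and Siglece did not, nor did Siglecf and Siglecg. Among all genes tested by TPM, Cd33 stood at percentile 76.2, Siglec1 at 73.5 and Siglece at 49.1. The order of the first 2 genes differed between genotypes. In WT, Siglec1 (10.9 to 19.8 TPM) lay below Cd33 (21.6 to 29.3 TPM) without overlap, and in Drp1 KO their ranges overlapped (25.7 to 33.8 and 24.7 to 31.1 TPM). Within a library the ratio of Siglec1 to Cd33 TPM was 0.675, 0.482 and 0.528 in WT and 1.10, 1.09 and 1.04 in Drp1 KO. This ratio was chosen after the values were seen and carries no test.

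Of the 3 mouse Siglec genes outside the 6, Cd22, an inhibitory receptor best known from B cells, had a mean of 23.4 TPM in WT, where Cd33 had 24.5 and Siglec1 14.0, and of 21.2 TPM in Drp1 KO, below Cd33 (27.2) and Siglec1 (29.3). Its level was 36.8 ± 4.91 CPM (SD, n = 3) in WT and 32.0 ± 3.83 CPM in Drp1 KO, with a log2 fold change of -0.20 (edgeR adjusted p = 0.515). Mag, a glycoprotein of myelin, had 3.39 TPM and a log2 fold change of -0.21 (edgeR adjusted p = 0.813). Siglec15, known from osteoclasts, had 1, 2 and 1 counts in WT and 0 in each Drp1 KO library, under the filter.

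**Figure D3:**
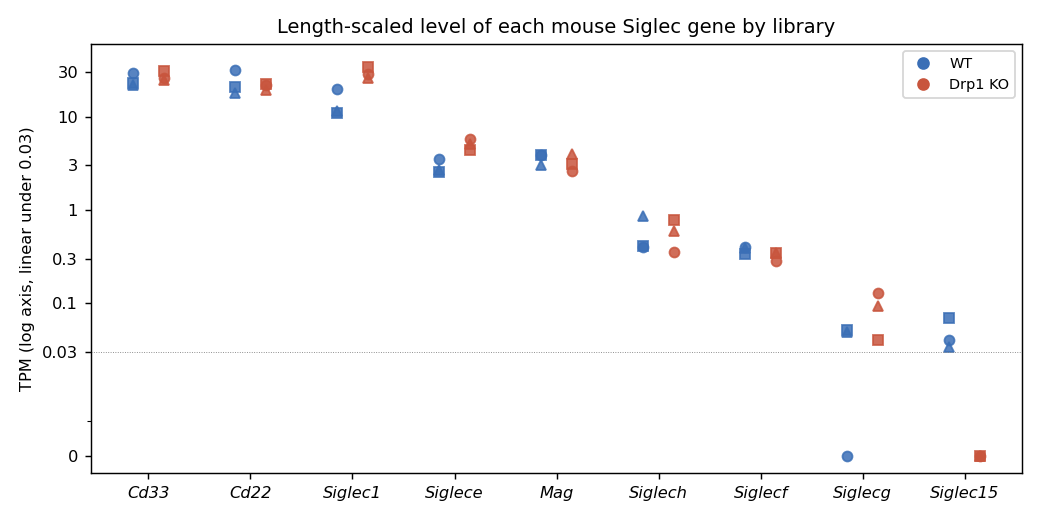
TPM of each mouse Siglec gene (vertical axis, logarithmic above 0.03 and linear below it) in WT (blue) and Drp1 KO (red) libraries, with genes in order of their mean and the symbols of the plot by library. Cd33, Cd22 and Siglec1 lie above 10 TPM in all 6 libraries, Siglece and Mag between 2.54 and 5.80, and Siglech, Siglecf, Siglecg and Siglec15 below 1.

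Over the 6 libraries, the profile of log2 CPM around its own mean was compared with those of 11784 other protein-coding genes, for the 3 Siglec genes that averaged 1 CPM or more. Nearest to Siglec1 by root mean square difference were Oas1a (0.138), H2-T22 (0.146) and Ccl2 (0.156). Nearest to Siglece were Kdr (0.0825), Heg1 (0.117) and Lgals9 (0.127). Cd33 was nearest to Tapbpl (0.0512), Fcf1 (0.0606) and Vdac3 (0.0641). The 3 neighbours of Cd33 also had WT library 1 above WT libraries 2 and 3 and were not past the threshold (edgeR adjusted p 0.305 to 0.651).

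**Figure D4:**
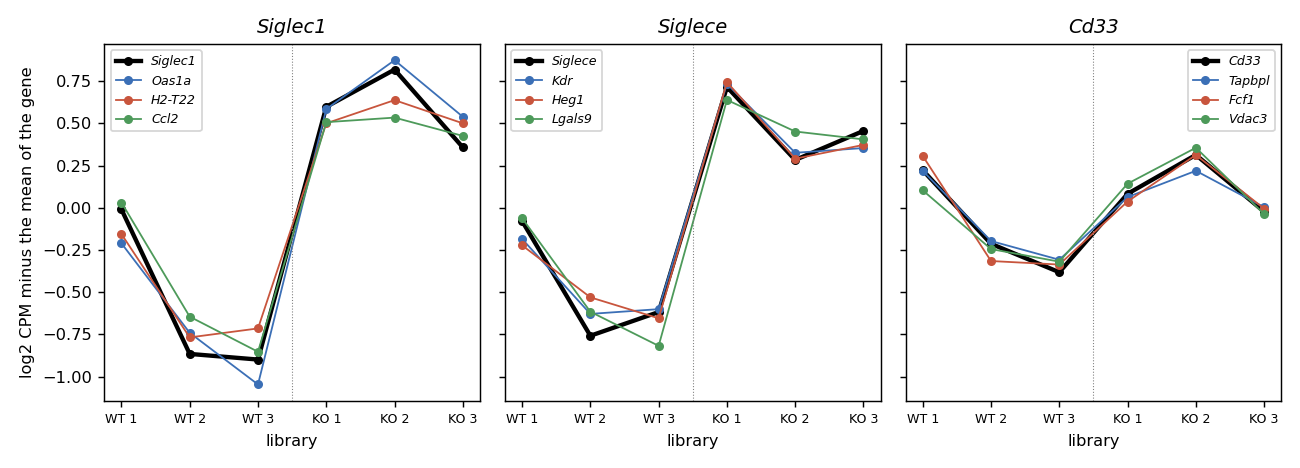
Log2 CPM minus each gene's mean (vertical axis) over the 6 libraries (horizontal axis) for Siglec1, Siglece and Cd33 (black) and the 3 genes nearest to each (coloured). Siglec1 and Siglece step up from WT to Drp1 KO with WT library 1 intermediate, whereas for Cd33 WT library 1 is within the range of the Drp1 KO libraries.

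Interferon-stimulated genes, of which Siglec1 is known as one, had a fold change above 0 for 25 of 25 listed genes, and 22 passed the test as higher, none as lower. Their median log2 fold change was 2.06, above that of Siglec1. Usp18, a negative regulator of interferon signalling, rose by 3.16 on the log2 scale, from 5.59 ± 1.49 to 49.8 ± 8.48 CPM (SD, n = 3, edgeR adjusted p = 0.000197). Among the antiviral genes of the list, Oasl2 rose by 2.23, Oasl1 by 3.57 and Mx1 by 1.78 (edgeR adjusted p 0.000322 to 0.000433). The summed level of the list was 1479, 1368 and 1039 CPM in WT libraries 1 to 3 and 3533, 4878 and 4961 CPM in Drp1 KO libraries 1 to 3. Siglec1 was likewise highest in WT library 1 among WT libraries, but among Drp1 KO libraries it was lowest in library 3, where the list was highest.

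Genes that make, attach and remove sialic acid, the Siglec ligand, gave no call in either direction. None of 8 genes of sialic acid synthesis and activation passed (median log2 fold change 0.01), none of 19 sialyltransferases tested (-0.03) and none of 4 sialidases, associated proteins and esterases tested (0.22). At an unadjusted edgeR p under 0.05 there were 2, 3 and 1 of them. DESeq2 called 0, 1 and 0 of them, limma-voom 0 in each, and the edgeR fit paired by number 2 (1 higher, 1 lower), 3 (2 higher, 1 lower) and 1 (higher). The 3 sialyltransferases at an unadjusted p under 0.05 differed in sign. St6gal1, which adds sialic acid in the linkage that Cd22 binds, was at 32.3 ± 4.39 CPM in WT against 23.9 ± 1.83 CPM in Drp1 KO (SD, n = 3, log2 fold change -0.44, edgeR adjusted p = 0.0989). St3gal6 was at 0.828 ± 0.268 and 1.80 ± 0.423 CPM (1.12, edgeR adjusted p = 0.122) and St8sia4, a polysialyltransferase, at 245 ± 38.9 and 317 ± 43.3 CPM (0.37, edgeR adjusted p = 0.201), in WT and Drp1 KO respectively.

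Among sialylated proteins known as Siglec ligands or carriers, all 7 tested genes had a fold change above 0, with a median log2 of 0.57. Of these, 3 passed the test as higher and none as lower, beside 2.29% and 1.06% of all genes. Spn (CD43), a counter-receptor of Siglec1 on T cells, rose from 18.5 ± 4.23 to 35.7 ± 6.86 CPM (SD, n = 3, log2 fold change 0.95, edgeR adjusted p = 0.0229). Cd52 rose by 0.62 and Cd47, the ligand of SIRP-alpha, by 0.57 on the log2 scale (edgeR adjusted p = 0.0197 and 0.0159). All 3 calls were lost without WT library 2 or without WT library 3, Cd47 also without Drp1 KO library 2 (edgeR adjusted p = 0.0544) and Spn also without Drp1 KO library 3 (0.0717).

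None of the 14 signalling partners of Siglecs passed the test (median log2 fold change 0.07), with 2 at an unadjusted edgeR p under 0.05. DESeq2 called 1 of them, limma-voom 0 and the fit paired by number 2. Ptpn6, which encodes SHP-1, was at 319 ± 28.4 CPM in WT against 279 ± 27.4 CPM in Drp1 KO (SD, n = 3, log2 fold change -0.19, edgeR adjusted p = 0.441). Tyrobp, which encodes DAP12, was at 213 ± 22.8 and 230 ± 22.7 CPM (log2 fold change 0.11, edgeR adjusted p = 0.707). Both were abundant in every library.

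**Figure D5:**
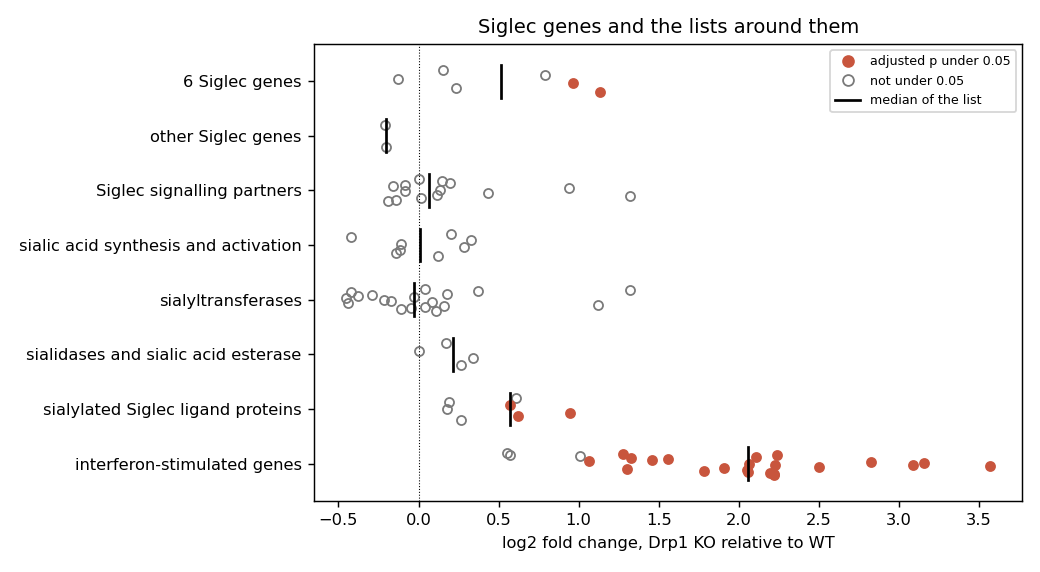
Log2 fold change, Drp1 KO relative to WT (horizontal axis), for the 6 Siglec genes and for each gene tested of 7 lists around them, filled where the edgeR adjusted p was under 0.05, with black lines for list medians. The interferon-stimulated genes lie furthest to the right (median 2.06). The Siglec genes have a median of 0.51, set in part by the scarce Siglecg. Medians are 0.01 for sialic acid synthesis, -0.03 for sialyltransferases and 0.22 for sialidases and the esterase.

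Since several Siglec genes are known from other cell types, markers of those cells were read beside them. For neutrophils, where Siglece is also expressed, 8 of 9 markers tested had a fold change above 0 (median log2 1.03). S100a8, S100a9, Ngp and Ltf, which encode granule and cytosolic proteins of neutrophils, had log2 fold changes of 1.38, 1.30, 1.32 and 1.03 (edgeR adjusted p 0.107 to 0.260), and for Ngp and Ltf the Drp1 KO libraries lay above every WT library. None passed the adjusted edgeR test and 5 had an unadjusted p under 0.05, while DESeq2 called 2, limma-voom 0 and the edgeR fit paired by number 5, all higher. Their summed level was 142, 137 and 142 CPM in WT against 252, 164 and 263 CPM in Drp1 KO, and the defining marker Ly6g was at 0 in every library. Most of the sum was Mmp8, a collagenase, at 78.6 ± 9.53 CPM in WT against 143 ± 64.2 CPM in Drp1 KO (SD, n = 3, groups overlapping, edgeR adjusted p = 0.161), and Csf3r, the G-CSF receptor, at 45.3 ± 1.66 and 43.9 ± 2.00 CPM. The part of these transcripts in the Siglece difference was not tested.

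For plasmacytoid dendritic cells, beside Siglech, Klk1 and Ly6d were at 0 in every library, none of 6 markers tested passed in edgeR or limma-voom (2 higher at an unadjusted p under 0.05, in DESeq2 and with libraries paired by number). Of the 6, 5 had a fold change above 0 (median log2 0.43). Bcl11a (0.75, edgeR adjusted p = 0.0748) and Cox6a2 (1.45, edgeR adjusted p = 0.0654) were higher in every Drp1 KO library than in any WT library, as were 11.7% of all genes. Flt3 was lower in every Drp1 KO library, at 0.419 ± 0.0506 CPM (SD, n = 3) in WT and 0.224 ± 0.0984 CPM in Drp1 KO (-0.87, edgeR adjusted p = 0.456). The summed level of the list was 105 to 124 CPM in WT against 112 to 145 CPM in Drp1 KO, most of it Tcf4. The part of these transcripts in the Siglech values was not tested. For B cells, beside Siglecg and Cd22, Blk was at 0, none of 5 tested passed in edgeR, DESeq2 or limma-voom (1 at an unadjusted edgeR p under 0.05), and the sum was 19.3 to 33.6 CPM in WT against 25.7 to 56.7 CPM in Drp1 KO. For eosinophils, beside Siglecf, Ear1 and Ear6 were at 0, none of 3 tested passed in edgeR, DESeq2 or limma-voom (0 at an unadjusted edgeR p under 0.05), and the sum was 6.77 to 10.8 CPM in WT against 6.99 to 12.3 CPM in Drp1 KO. For alveolar macrophages Car4, Fabp1 and Krt79 were at 0, and of 3 markers tested Marco, a scavenger receptor, fell by 2.39 on the log2 scale (edgeR adjusted p = 0.00799), with a summed level of 101 to 276 CPM in WT against 48.8 to 70.7 CPM in Drp1 KO. The Marco call was lost without Drp1 KO library 2, and with libraries paired by number all 3 alveolar markers tested passed, 2 as higher and 1 as lower.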

How the data were processed

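The authors quantified paired-end poly(A) RNA-seq reads with kallisto (version 0.46.1 in the submitters' processing notes) against Ensembl cDNA of GRCm39 and deposited an estimated count and a TPM value per transcript, with its length and effective length, for 3 WT and 3 Drp1 KO libraries. Strand handling in the quantification is not given in the sources used here.

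Of 116873 transcripts, 116159 (99.4%) matched GENCODE by identifier. The unmatched transcripts, with up to 0.575% of counts per library, were dropped. For each gene the estimated counts of its transcripts were summed, then rounded to whole numbers. Drp1 KO was compared with WT in edgeR 4.0.16 (R 4.3.3), with TMM normalization, at least 10 counts in total, the quasi-likelihood test without covariate and Benjamini-Hochberg adjustment over 18506 genes. Standard errors were derived from the F statistic (log2 fold change over its root). The procedure was tested on simulated data.

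Replicate numbers were taken to pair the libraries, because deviations of same-numbered WT and Drp1 KO libraries from their group means correlated at 0.510, 0.204 and 0.298 over 12248 genes, each over 0.1. The pairing comes from the data, not from a stated shared day or animal. Other pairs ranged from -0.443 to 0.326. The highest of these, WT library 2 with Drp1 KO library 3, was above the same-numbered values of 0.204 and 0.298. Deviations within a group sum to 0, so the correlations depend on each other. They do not show that libraries 2 and 3 pair by number, and the pairing remains an assumption. No library was a copy of another.

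Named genes were the 6 Siglec genes, the 3 others of the family, Dnm1l, up to 4 genes past the threshold per list by smallest p, and the 3 nearest profiles. St6gal1, St3gal6, St8sia4, Bcl11a, Cox6a2, Flt3, Lyz2, the neutrophil genes with values, Ptpn6, Tyrobp, Tcf4, Ceacam18 and markers at 0 were named after their values were seen. One B cell marker is not reported here. Members and lists were chosen with earlier results of these data known.

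Alternatives were DESeq2 1.42.0, limma-voom (limma 3.58.1), median-of-ratios size factors, library size only, no filter beyond 1 count, filterByExpr, length-scaled counts, protein-coding transcripts only, the replicate block, and each library left out.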

Additional observations from a re-analysis of the deposited data

How the results depend on the processing

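Siglec1 kept its direction under all 15 alternatives (adjusted p 3.01e-05 to 0.142 over edgeR, DESeq2 and limma-voom fits), as did Siglece (0.00164 to 0.204). With 1 library left out, the log2 fold change ran from 0.96 to 1.48 for Siglec1, 0.81 to 1.19 for Siglece, 0.10 to 0.42 for Cd33 and -0.11 to 0.56 for Siglech, which reversed without WT library 2 (-0.04) and Drp1 KO library 2 (-0.11). Between 0 and 2 of the 6 genes and 181 to 904 of all genes were then called, the fewest without WT library 2 (181), WT library 3 (217), Drp1 KO library 2 (268) and Drp1 KO library 3 (348). With length-scaled counts Siglece had 0.89 (adjusted p 0.0722) and 1 of the 6 was called. DESeq2 called 1155 genes in all and the fit with no filter beyond 1 count 1065, against 621. The causes were not tested.

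With the replicate block, which pairs libraries by number, Siglec1 had a log2 fold change of 1.18 (edgeR adjusted p 0.000936), Siglece 0.98 (0.00164) and Cd33 0.25 (0.197). It called 2212 genes, each of the 621 among them, and changed no call among the 6.

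Among lists with no call, leaving out 1 library gave at most 2: neutrophil markers had 2 (Drp1 KO library 1 left out) or 1 (its library 2 left out), and there was 1 each for signalling partners (Drp1 KO library 1), plasmacytoid dendritic cell markers (Drp1 KO library 3) and B cell markers (WT library 1). With no filter beyond 1 count, edgeR called 4 neutrophil markers, 2 plasmacytoid dendritic cell markers and 2 signalling partners, all higher. That fit also called 1 sialyltransferase, as lower.

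Depth limited Siglecf, Siglecg and Siglech, with at most 62 counts per genotype. DESeq2 gave no adjusted p for Siglecf and Siglecg, and filterByExpr left Siglecg untested. Intervals of count ratios cover counting error only.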
